A study of Homo sapiens with 4 samples.

Results

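Molecular chaperones and heat shock proteins were followed across 4 dual-colour cDNA arrays of A549 cells, a human lung adenocarcinoma line. Members were all genes whose symbol belongs to the families HSP90, HSP70, the J-domain proteins (DNAJA, DNAJB, DNAJC), the small heat shock proteins (HSPB), the cytosolic chaperonin (CCT), the BAG proteins, the FKBP prolyl isomerases and the heat shock factors, together with STIP1 and CDC37. The endoplasmic reticulum chaperones HSP90B1 and HSPA5 were left out of the members. The choice by symbol gave 75 genes, measured by 110 probes, out of 12483 genes with a probe of their own. It also took in gene products that do not work in the cytosol, of which only some are named here. HSPA9, DNAJA3, DNAJC15 and DNAJC30 act in mitochondria, DNAJB9, DNAJB11, DNAJC3, FKBP2, FKBP7, FKBP10, FKBP11 and FKBP14 in the endoplasmic reticulum, and HSPA2-AS1 is an antisense RNA. HSPA1A, HSPA1B, HSPH1, HSPD1, HSPE1, TCP1, AHSA1, PTGES3, HSF2 and BAG3 were not analysed here.

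Each array set RNA of an A549 culture overexpressing the microRNA gene let-7a-3 against RNA of a parental A549 culture, both grown in DMEM with serum, with no other treatment named. The labels exchange the dyes between arrays 1 and 3 on one side and arrays 2 and 4 on the other. The parental line was the control, so effects of transfection were not separated from those of the microRNA, and the labels do not say whether 1 transfected line or several gave the let-7a-3 cultures. The deposited value is a log ratio whose base, numerator and orientation are not stated. A sign therefore says only that genes lie on the same or on opposite sides, not which culture held more RNA, and with the sign turned every negative value here would be positive. The product of the overexpressed gene is shown because it names the perturbation, with its seed (bases 2 to 8, which pair with targets) in capitals, at chr22:46112752-46112773 (plus strand, RefSeq, GRCh38.p14).
hsa-let-7a-5p: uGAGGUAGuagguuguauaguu

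Chaperones bind unfolded stretches of proteins and let them fold, refold or be degraded. HSP70 takes its clients from J-domain proteins, which also drive its ATP cycle, and nucleotide exchange factors such as BAG proteins release them. HSP90 then finishes many kinases and steroid receptors with the help of co-chaperones, and the ring-shaped chaperonin folds actin and tubulin. Heat shock factor 1 binds heat shock elements, arrays of GAA units in alternating orientation, and switches on many of these genes under stress. Cancer cells commonly depend on this network.

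For each gene limma estimated 1 component that all 4 arrays share and 1, called alternating, whose sign turns with the dyes. Which of them holds the let-7a-3 effect and which a dye effect is not settled by the labels, for any call below. Across all probes, arrays of the same orientation correlated at Pearson r = 0.43 and 0.56, and arrays of opposite orientation between -0.16 and 0.055. Spearman correlations were 0.33 and 0.54 for the same orientation and between -0.31 and -0.031 for opposite ones. Both are descriptions over probes that are not replicates. The array medians lay between -0.0022 and 0.0174. Signal intensities were not used here, so levels of marker genes, dim spots and RNA amount per cell could not be examined, and less RNA per cell cannot be told apart from a lower share of the labelled RNA. Of 5 lung epithelial markers KRT8 passed in the shared component (0.39), and EPCAM (0.095), SFTPC (0.074), SFTPB (0.017) and CDH1 (-0.048) did not. Of 6 fibroblast, 4 blood and 4 endothelial markers measured, NKG7 alone passed in the shared component (-0.26) and TEK alone in the alternating one (-0.20), and their part in the results below was not tested.

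In the shared component 5 of the 75 chaperone genes passed a limma adjusted p of 0.05 (6.67%, against 3.04% of all 12483 genes). HSP90AA1, the stress-inducible cytosolic HSP90, and the J-domain proteins DNAJA1, DNAJB4 and DNAJC30 had negative log ratios (4 genes, 5.33%, against 1.41% of all genes). HSPA2, an HSP70 best known from the testis, had a positive one (1.33%, against 1.63%). The other 70 genes did not pass. The median size of the log ratio, sign aside, was 0.055 in chaperone genes and 0.045 over all genes. The member median was -0.022, against 0.0069 over all genes, and 46 of the 75 were negative (61.3%, against 45.8% of all genes). At an unadjusted p under 0.05 there were 16 members (21.3%, against 14.6% of all genes), 10 of them negative (13.3%, against 6.99%). Negative on all 4 arrays were 8 members (10.7%, against 6.94% of all genes) and positive on all 4 were 4 (5.33%, against 8.84%).

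**Figure D1:**
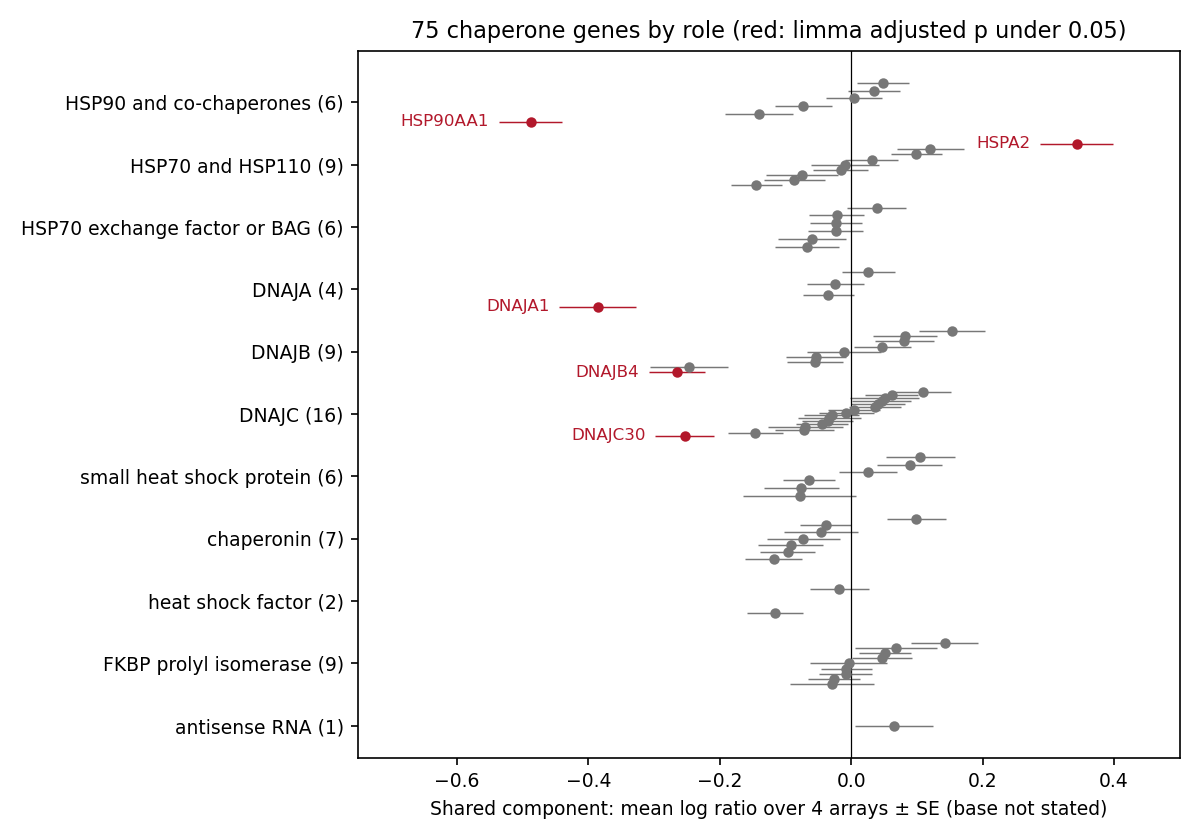
Shared log ratio of each of the 75 chaperone genes (x axis, mean of 4 arrays, base not stated; bars are the standard error from limma), grouped by role with the number of genes in brackets. HSP90AA1 (-0.49) and DNAJA1 (-0.39) lie farthest to the negative side and HSPA2 (0.34) farthest to the positive side, and DNAJB5 (grey, -0.25), which did not pass, lies level with the called DNAJB4 and DNAJC30.

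Among HSP90 and its co-chaperones, 1 of 6 measured genes passed (16.7%, against 3.04% of all genes). HSP90AA1 gave log ratios of -0.57, -0.35, -0.78 and -0.26 on arrays 1 to 4. All 4 arrays were negative, and the 2 orientations did not overlap, with means of -0.67 on arrays 1 and 3 and -0.30 on arrays 2 and 4. The shared log ratio was -0.49 ± 0.23 (SD, n = 4; limma adjusted p = 0.0013), and HSP90AA1 ranked 81 of all genes by p. HSP90AB1, the constitutive cytosolic HSP90, gave -0.030, 0.17, -0.057 and 0.11. It changed sign with the orientation and did not pass (0.048 ± 0.11, adjusted p = 0.64). On every array HSP90AA1 lay below HSP90AB1, and their differences were -0.54, -0.52, -0.72 and -0.37. That pair was set side by side after the values were seen, so the gap is a description, and normalization compresses ratios of dim spots by an amount not known for either spot.

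The co-chaperones stood closer to HSP90AB1. FKBP4, a prolyl isomerase that brings steroid receptors to HSP90, had -0.14 (limma adjusted p = 0.25), and both of its clones were negative, at -0.17 and -0.12. CDC37, which loads kinases onto HSP90, had -0.073. STIP1, the adaptor that links HSP70 and HSP90, lay at 0.0038 and FKBP5, a glucocorticoid-induced isomerase, at 0.034. None of these 4 passed.

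Promoter sequence was set beside the HSP90 and J-domain values because heat shock elements are the sites through which heat shock factor 1 is known to act. Elements were searched as 3 alternating units of GAA and TTC with any 2 bases (NN) between them, starting with either unit. The 2 forms, GAA NN TTC NN GAA and TTC NN GAA NN TTC, are each other's reverse complement, and both strands were searched. RefSeq promoters (GRCh38.p14, 250 bases before to 50 after a start) were found for 65 of the 75 genes, 94 promoters in all, since a gene can have several starts. A match was present in 5 of the 94 (5.32%), each in a different gene, against 172 of 35116 promoters in the whole table (0.49%). The shorter 2-unit forms GAA NN TTC and TTC NN GAA, which also occur inside the longer ones, were present in 22 member promoters (23.4%, against 13.5% in the table). The stretches around the matches are shown 5′ to 3′ on the strand of the gene, with the matched letters in capitals.
HSP90AA1, chr14:102087090-102087162, minus strand: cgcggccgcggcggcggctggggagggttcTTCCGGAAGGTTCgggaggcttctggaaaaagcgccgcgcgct
HSP90AB1, chr6:44247748-44247873, plus strand: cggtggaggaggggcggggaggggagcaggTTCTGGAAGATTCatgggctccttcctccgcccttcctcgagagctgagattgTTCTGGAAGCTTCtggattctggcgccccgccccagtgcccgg
DNAJA1, chr9:33025246-33025302, plus strand: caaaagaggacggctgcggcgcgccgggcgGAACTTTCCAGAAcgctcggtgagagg
HSPA8, chr11:123062149-123062386, minus strand: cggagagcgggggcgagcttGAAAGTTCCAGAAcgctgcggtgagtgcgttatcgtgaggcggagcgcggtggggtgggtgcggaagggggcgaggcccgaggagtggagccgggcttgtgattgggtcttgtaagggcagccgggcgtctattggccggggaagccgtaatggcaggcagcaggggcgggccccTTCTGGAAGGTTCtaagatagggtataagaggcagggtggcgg
DNAJB6, chr7:157336843-157336915, plus strand: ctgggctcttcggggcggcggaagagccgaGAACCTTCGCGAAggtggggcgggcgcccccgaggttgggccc

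The match in HSP90AA1 spans bases -88 to -76 from a start of the gene, and that in DNAJA1 lies just after the start, at bases 4 to 16. Other starts listed for HSP90AA1 and HSP90AB1 hold no 3-unit match. HSP90AB1 and HSPA8 each hold 2 matches, the nearer ones at -112 to -100 and at -55 to -43. The match in DNAJB6 lies at -131 to -119. Of the 5 genes with a match, HSP90AA1 and DNAJA1 passed with negative values. HSPA8 (-0.075, limma adjusted p = 0.59), HSP90AB1 (0.048, adjusted p = 0.64) and DNAJB6 (0.081, adjusted p = 0.47) did not pass, so no direction is read for them. The part of the elements in these values was not tested. The other called genes, DNAJB4, DNAJC30 and HSPA2, hold no 3-unit match in the windows of the table, and a match is letters only, not a measured binding site.

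J-domain proteins formed the largest family, with 29 genes. Of these 3 passed with negative values (10.3%, against 1.41% of all genes) and none with a positive one (against 1.63%). DNAJA1, a cytosolic partner of HSP70 that carries a farnesyl anchor, gave -0.71, -0.29, -0.40 and -0.14 on arrays 1 to 4. All were negative, and arrays 1 and 3 lay below arrays 2 and 4 (means -0.56 and -0.21). The shared log ratio was -0.39 ± 0.24 (SD, n = 4; limma adjusted p = 0.013). Its family members DNAJA2 (-0.035), DNAJA3 (0.026), a mitochondrial protein, and DNAJA4 (-0.024) did not pass.

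DNAJB4, a cytosolic J-domain protein related to DNAJB1, gave -0.38, -0.25, -0.28 and -0.15. All were negative, and arrays 1 and 3 lay below arrays 2 and 4, with array 3 close to array 2 (-0.26 ± 0.092, SD, n = 4; limma adjusted p = 0.017). DNAJB1, the classical heat-inducible HSP40, gave 0.10, 0.063, -0.061 and 0.22 and did not pass (0.082, adjusted p = 0.50). DNAJB11, an endoplasmic reticulum co-chaperone, had the highest value of the class (0.15, adjusted p = 0.19). DNAJB5 had the second lowest, -0.25 ± 0.44, but it ranged from -0.62 to 0.29 and did not pass in the shared component (adjusted p = 0.078).

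Among 16 DNAJC genes, DNAJC30, a mitochondrial J-domain protein, gave -0.25, -0.37, -0.095 and -0.29. Here arrays 2 and 4 were the lower ones, opposite to HSP90AA1 and DNAJA1, and the shared log ratio was -0.25 ± 0.12 (SD, n = 4; limma adjusted p = 0.025). DNAJC9, a nuclear protein that also chaperones histones, was negative on all 4 arrays averaged over its 3 clones, which agreed at -0.17, -0.15 and -0.12, but did not pass (-0.15, adjusted p = 0.13). DNAJC22 lay on the other side at 0.11 (limma adjusted p = 0.30). Its 2 clones had the same mean but ran opposite ways with the dye orientation, at 0.28, -0.021, 0.26 and -0.077 against 0.065, 0.32, -0.19 and 0.23. DNAJC3, an inhibitor of the stress kinase PERK, lay at 0.036.

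**Figure D2:**
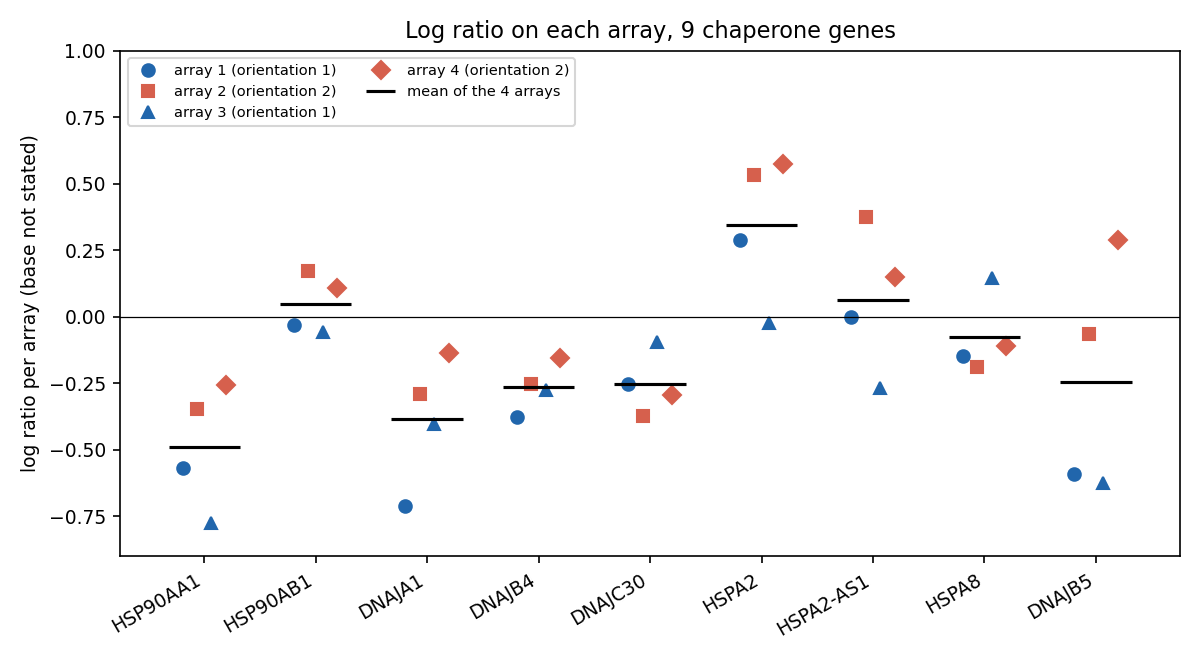
Log ratio on each of the 4 arrays (y axis, base not stated) for 9 chaperone genes, with arrays 1 and 3 in blue, arrays 2 and 4 in red and the mean as a bar. HSP90AA1, DNAJA1, DNAJB4 and DNAJC30 are negative on all 4 arrays, HSPA2 is positive on 3, and DNAJB5 runs from -0.62 on array 3 to 0.29 on array 4.

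HSP70 genes gave 1 call among 9 (11.1%, against 3.04% of all genes). HSPA2 gave 0.29, 0.53, -0.024 and 0.58 on arrays 1 to 4. Arrays 1, 2 and 4 were positive and array 3 was close to 0, so the mean of arrays 1 and 3 was 0.13 and that of arrays 2 and 4 was 0.56. The shared log ratio was 0.34 ± 0.28 (SD, n = 4; limma adjusted p = 0.017). HSPA2-AS1, an RNA from the opposite strand whose gene overlaps HSPA2 in the gene table, gave 0.38 on array 2, -0.27 on array 3 and 0.15 on array 4, and averaged 0.065 (adjusted p = 0.68). Its value lay below that of HSPA2 on all 4 arrays. Spotted double-stranded clones bind labelled RNA of either strand where the sequences overlap, so the 2 transcripts cannot be told apart there. In the gene table HSP90AA1 likewise overlaps WDR20, and DNAJB4 overlaps FUBP1. Whether their clones cover the overlap was not tested.

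HSPA8, the abundant constitutive HSP70, gave -0.15, -0.19, 0.15 and -0.11 and did not pass (-0.075). HSPA9, the mitochondrial HSP70 mortalin, averaged 0.099 ± 0.046 (SD, n = 4; limma adjusted p = 0.29) over 2 clones that differed. One clone lay at 0.22 and was positive on all 4 arrays, and the other lay at -0.022 and was negative on 3. HSPA4L, a relative of HSP110, was negative on all 4 arrays (-0.14, adjusted p = 0.12), and HSPA4 was at -0.016. HSPA13 (0.12), HSPA12A (0.031), HSPA12B (-0.0089) and HSPA1L (-0.086) completed the family. Among the 6 HSP70 release factors and BAG proteins none passed in limma, none reached an unadjusted p of 0.05, and values ran from -0.067 for BAG2 to 0.039 for BAG5.

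The chaperonin gave no call. Of 7 measured CCT subunits 6 had negative means, between -0.12 for CCT2 and -0.039 for CCT6B, a testis form, and CCT8 was at 0.099. No subunit passed in limma, 1 (CCT2) had an unadjusted p under 0.05, and the median was -0.073. None of the 7 had 1 sign on all 4 arrays, and the clones of CCT5 (-0.28 and 0.093) and CCT8 (-0.020 and 0.22) lay on opposite sides. CCT2, for instance, gave -0.13, -0.084, -0.26 and 0.0030.

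Small heat shock proteins, which hold unfolded proteins without using ATP, lay between -0.079 for HSPB7 and 0.11 for HSPB3, and none of 6 passed in limma or reached an unadjusted p of 0.05. HSPB1, also known as HSP27, gave -0.11, 0.12, -0.11 and -0.21. HSPB8, the partner of BAG3 in selective autophagy, averaged -0.065. HSF1, the master regulator of the heat shock response, was negative on all 4 arrays (-0.25, -0.070, -0.13 and -0.014) and did not pass (-0.12 ± 0.10, SD, n = 4; limma adjusted p = 0.25). HSF4, the factor of the lens, was at -0.018. The 9 FKBP isomerases outside the HSP90 group held no call in limma, with FKBP7 highest (0.14, adjusted p = 0.24) as the 1 gene with an unadjusted p under 0.05.

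Different clones of a gene did not always give the same picture. At the probe level 7 of 110 chaperone probes passed in the shared component (6.36%, against 2.07% of all 26629 probes), 1 positive (0.909%, against 1.12%) and 6 negative (5.45%, against 0.946%). Those of HSP90AA1, DNAJA1, DNAJB4, DNAJC30 and HSPA2 are the only clones of their genes with 1 symbol, so these 5 calls could not be checked against a second clone. The other 2 belong to HSPA4L and HSPB8. One HSPA4L clone gave -0.19, -0.40, -0.24 and -0.34 (shared log ratio -0.29 ± 0.096, SD, n = 4; limma adjusted p = 0.017), and the other was at 0.0042. One HSPB8 clone gave -0.46, -0.25, -0.19 and -0.20 (-0.28 ± 0.13; adjusted p = 0.047), while the other was positive on 3 of 4 arrays, at 0.15. Clones of 13 of the 24 genes with several lay on both sides of 0. The median gap between the highest and lowest clone was 0.099, and HSPB8 had the widest, 0.43. Whether clones differ by transcript, by hybridization to related sequences or by identity was not tested.

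**Figure D3:**
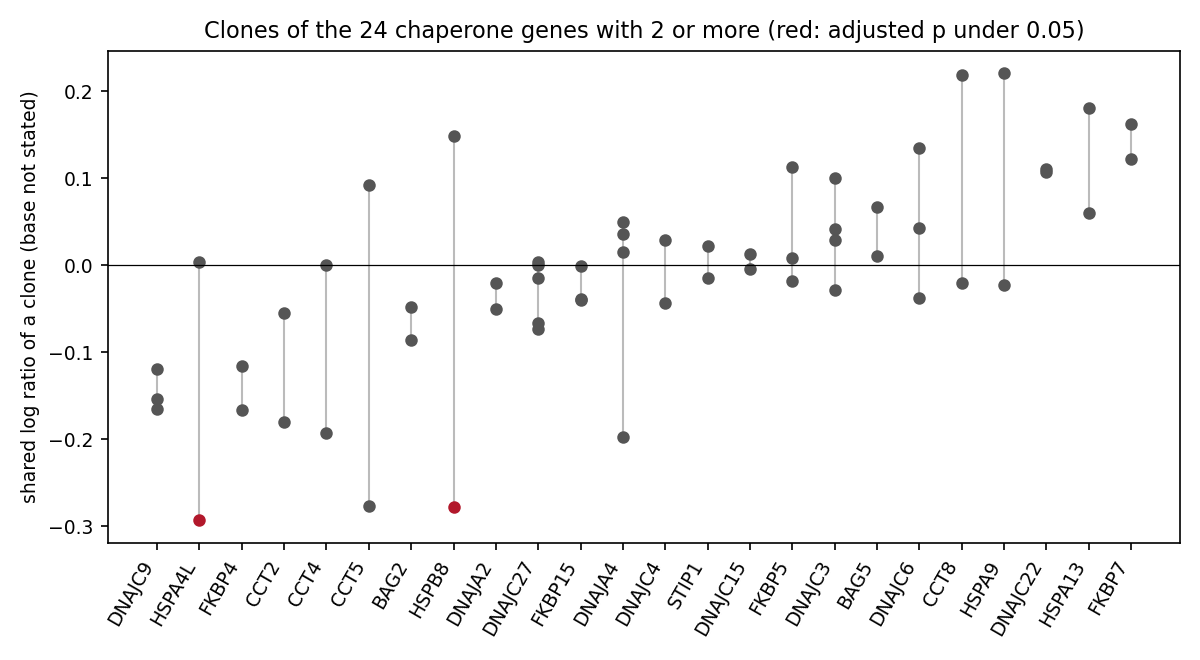
Shared log ratio of every clone (y axis, base not stated) for the 24 chaperone genes with 2 or more clones, joined by a grey line and ordered by the gene's mean. The called clones of HSPA4L (-0.29) and HSPB8 (-0.28), in red, stand away from the other clone of the same gene.

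The alternating component, given here with the sign of arrays 1 and 3, held 1 called gene among the 75 chaperone genes (1.33%, against 3.29% of all genes), on the negative side (against 1.39%). DNAJB5, a cytosolic J-domain protein, gave -0.59 and -0.62 on arrays 1 and 3 and -0.064 and 0.29 on arrays 2 and 4. The orientations did not overlap, and the alternating log ratio was -0.36 (limma adjusted p = 0.030). In the shared component DNAJB5 lay next to DNAJC30, with HSP90AA1, DNAJA1 and DNAJB4 below both. The alternating log ratios of HSP90AA1 (-0.19, adjusted p = 0.072), HSPA2 (-0.21, adjusted p = 0.075) and DNAJA1 (-0.17, adjusted p = 0.13) did not pass.

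Chaperones leaned to 1 side in this component. Of the 75 genes 51 were negative (68.0%, against 53.8% of all genes), and the median was -0.053, against -0.0081. An unadjusted p under 0.05 was reached by 19 members, all of them negative (25.3%, against 13.7% of all genes that were negative at this level and 25.6% in either direction). The lean is visible on single arrays. Members were negative in 61.3% and 72.0% on arrays 1 and 3 but in 40.0% and 36.0% on arrays 2 and 4, where all genes stood at 49.3%, 49.9%, 45.2% and 46.6%. Dye and culture exchange places between these arrays, which puts a dye effect and a culture effect into different components. The orientation of the ratio is not stated, so which of the 2 this lean reflects cannot be told. All 6 genes of the HSP90 group and 6 of 7 CCT subunits were negative, none of them called. FKBP5 among them lay at only -0.0026, the mean of clones at 0.18, -0.19 and 0.0011. Cell type markers were counted in this component too. The negative ones were 4 of 4 blood, 3 of 4 endothelial, 4 of 6 fibroblast and 3 of 5 lung epithelial markers. All genes stood at 53.8%. The positive ones included COL3A1 (0.20), EPCAM (0.13) and SFTPB (0.096). The group medians, in the same order, were -0.073, -0.10, -0.017 and -0.017, and the part of these markers in the lean was not tested.

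At the probe level 4 of 110 chaperone probes passed in the alternating component (3.64%, against 4.28% of all probes), all negative (against 1.48%). They were the DNAJB5 probe and 1 clone each of CCT4, CCT8 and FKBP15. The CCT4 clone gave -0.16, 0.28, -0.42 and 0.30 and thus a shared value of -0.00031, while its sister clone gave -0.16, -0.21, -0.15 and -0.26, negative on every array. The FKBP15 clone gave -0.32, 0.21, -0.25 and 0.21, and the 2 other FKBP15 clones ran from -0.092 to 0.036 over all arrays.

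**Figure D4:**
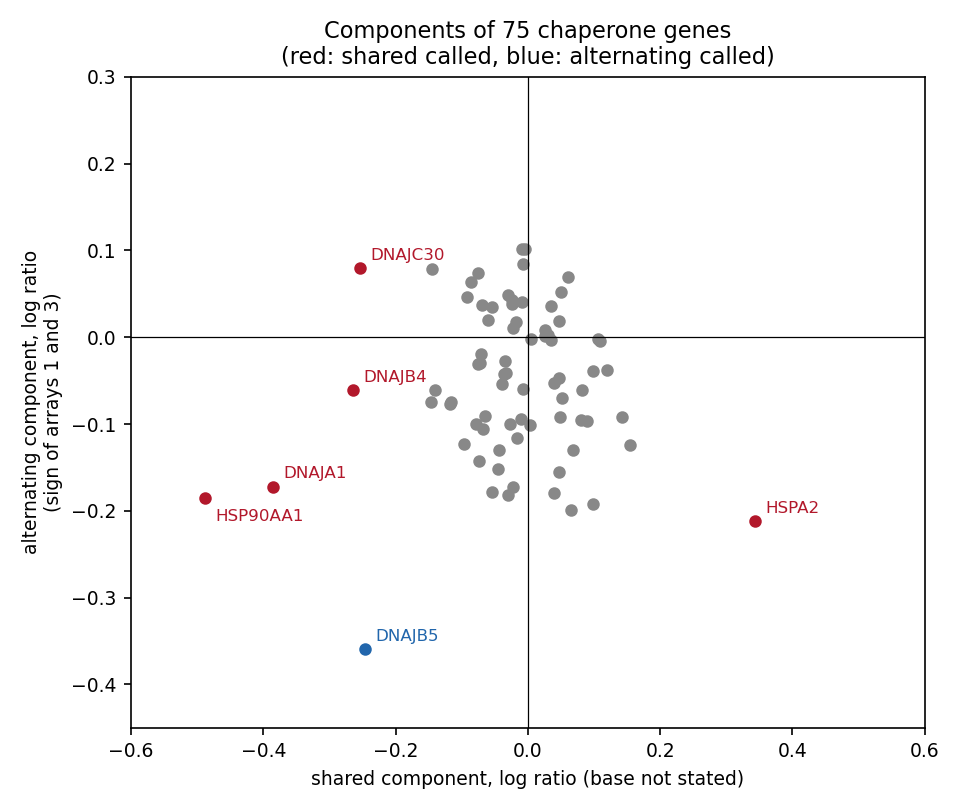
Shared (x axis) against alternating log ratio (y axis, sign of arrays 1 and 3) for the 75 chaperone genes, base not stated. HSP90AA1 (-0.49), DNAJA1 (-0.39) and HSPA2 (0.34) lie farthest out on the x axis, the called DNAJB4 (-0.26) and DNAJC30 (-0.25) lie level with DNAJB5 (-0.25), which is not called there, DNAJB5 (blue, -0.36) lies lowest on the y axis, and 51 of the 75 points lie below 0 on the y axis.

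Other folding genes were listed by function. There were 35 genes listed as partners of the cytosolic and mitochondrial chaperones. Of these 25 were measured and 1 passed in the shared component (4.00%, near the 3.04% of all genes). The list was a loose one. It took in the ubiquitin gene UBB, the small heat shock protein CRYAB, TSC22D1, and SERPINH1 of the endoplasmic reticulum. NUDC, a co-chaperone of HSP90 named for nuclear migration, gave -0.31, -0.099, -0.43 and -0.015 (-0.21 ± 0.19, SD, n = 4; limma adjusted p = 0.042). The list median was 0.0069, with 13 positive and 12 negative genes. ST13, the HSP70 interacting protein (0.077), the ubiquitin ligase STUB1 (-0.058), the prefoldin subunit PFDN4 (0.17, adjusted p = 0.066) and the mitochondrial HSP90 relative TRAP1 (-0.0093) did not pass. UNC45A, a myosin chaperone, was the 1 of 25 that passed in the alternating component (-0.23, limma adjusted p = 0.033; 4.00%, against 3.29% of all genes).

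Endoplasmic reticulum counterparts were listed too, and 1 of them, HSP90B1, passed on the other side of HSP90AA1. HSP90B1, the HSP90 of that compartment, gave 0.42, 0.30, 0.12 and 0.29 on arrays 1 to 4, positive on every array (0.28 ± 0.12, SD, n = 4; limma adjusted p = 0.034). All 6 measured of 10 listed had positive means, where 45.8% of all genes were negative. Their median was 0.056, and the lowest was PDIA3 at 0.0022. SERPINH1, a collagen chaperone of the same compartment, was counted with the partners above instead. It was negative on all 4 arrays but did not pass (-0.14, limma adjusted p = 0.14). HSP90B1 was the 1 that passed (1 of 6, against 3.04% of all genes). HYOU1, an endoplasmic reticulum HSP70 relative, had 0.17 (adjusted p = 0.11) and the lectin chaperone CANX 0.064. DNAJB9, counted among the chaperone genes above as well, had 0.047. Of the chaperone genes named above for this compartment, FKBP2 (-0.0075), FKBP10 (-0.029) and FKBP14 (-0.0040) had negative means, and the others had positive ones.

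The 5 shared calls depended on the arrays and on the fit. HSP90AA1 passed with any 1 array left out. DNAJA1 did not pass without array 2, and DNAJB4, DNAJC30 and HSPA2 did not pass without array 2 or without array 4. Without the dye term HSP90AA1 alone passed (1.33%, against 1.25% of all genes). Without moderation none of the 5 passed in limma (against 0% of all genes). Over all alternatives the adjusted p of HSP90AA1 ran from 3.33e-09 to 0.368. Leaving out array 1 gave 9 called chaperone genes (12.0%, against 6.39% of all genes), and leaving out array 2 gave 1 (1.33%, against 1.43%). Leaving out array 3 gave 9 (12.0%, against 11.8%), and leaving out array 4 gave 3 (4.00%, against 1.63%). The share of chaperone genes therefore stood close to that of all genes without array 2 and without array 3. In the alternating component the same steps gave 15 (20%, against 18.4%), 1 (1.33%, against 0.312%), 9 (12.0%, against 12.7%) and 0 genes (against 0.553%; 13 at an unadjusted p under 0.05 in limma), and DNAJB5 did not pass once array 4 was left out.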

How the data were processed

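Dual-colour cDNA arrays of amplified RNA carried 1 let-7a-3 and 1 parental A549 culture each (4 arrays). Per the design text, ArrayMagic with VSN (variance-stabilizing normalization) turned the scans into the log ratios that the authors deposited, 1 per probe and array. Neither base, numerator, software versions nor spot filters are stated. Gene names came from the platform annotation, and all 75 member symbols were current in the GRCh38.p14 gene table. Probes lacking a single symbol stayed unnamed in the probe fit. Log ratios were averaged over a gene's probes. Both levels were fitted with limma 3.58.1 under R 4.3.3, with a shared and a dye-orientation coefficient on 2 residual degrees of freedom. P-values are two-sided and adjusted by Benjamini-Hochberg across all genes or all probes. SD is over the 4 arrays and holds both components. The fit was tested on simulated data. Members and lists were chosen with earlier results of these data known. Chosen to be named were all called genes, genes with a called probe, and textbook genes where measured. The choice also took the 3 genes per role with the largest shared and the 1 with the largest alternating statistic. Of the chosen genes, HSPBP1, DNAJC17, FKBP3, FKBP8, HSPB9 and BAG4 are not described in the text. None of them passed in either component. Genes outside the choice, such as DNAJB6, HSPA13, HSPB7 and CCT6B, were named after their values were seen, to complete a family. Alternatives were other scalings, no dye term, robust (statmod 1.5.0) or no moderation, other thresholds, other gene summaries, probes with 1 symbol, and leaving out each array. Figures were drawn with matplotlib 3.10.9.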

Additional observations from a re-analysis of the deposited data

How the results depend on the processing

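Median centring, quantile normalization, scaling to 1 median absolute deviation and robust moderation left the same 5 shared gene calls and the same alternating call. Of the 1148 values of named genes under an alternative, 0 changed to a call of the opposite sign, 24 lost a call and 43 gained one. A further 24 changed sign without being called in the main fit or in the alternative. Without the dye term 1 gene, HSP90AA1 (1.33%, against 1.25% of all genes), and 1 probe (0.909%, against 0.867% of all probes) passed in the shared component in limma. In the alternating one 0 genes (against 0.0801%) and 0 probes (against 0.383%) passed, with 14 and 23 at an unadjusted p under 0.05. Without moderation 0 genes and 0 probes passed in either component, with 13 genes and 17 probes at an unadjusted p under 0.05 in the shared and 13 and 19 in the alternating one. At an adjusted p of 0.01 the shared counts were 1 gene (1.33%, against 1.3% of all genes) and 1 probe (0.909%, against 0.931% of all probes). The alternating counts were 0 genes (against 0.0561%) and 0 probes (against 0.0901%), with 19 and 29 at an unadjusted p under 0.05. At an adjusted p of 0.1 the alternating counts were 9 genes (12.0%, against 11.2% of all genes) and 15 probes (13.6%, against 11.8% of all probes). With the probe of the largest statistic per gene 8 genes passed in the shared (10.7%, against 5.08%) and 11 in the alternating component (14.7%, against 14.3%). Leaving out 1 array gave 1 to 9 genes and 1 to 9 probes (shared), and 0 to 15 genes and 0 to 9 probes (alternating). With arrays 1 to 4 left out in turn, the shared probe shares were 2.73%, 0.909%, 8.18% and 1.82%. All probes stood at 1.91%, 1.02%, 3.32% and 1.07%. The alternating probe shares were 8.18%, 0.909%, 1.82% and 0%, against 7.04%, 0.424%, 4.25% and 0.518% of all probes. The number of arrays limits the precision, and no filter on dim spots could be tried.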
